A study of Sus scrofa with 6 samples.

Results

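The genes described here encode 10 enzymes that break down the branched-chain amino acids leucine, isoleucine and valine: BCAT2, BCKDHA, BCKDHB, BCKDK, DBT, IVD, MCCC1, MCCC2, HIBCH and HIBADH. They were looked up by symbol in a table of liver RNA levels, and where a symbol had more than 1 row, the row with the highest mean was kept. The symbols of 6 genes were in the table (BCAT2, BCKDHB, BCKDK, DBT, IVD and MCCC1). BCKDHA, MCCC2, HIBCH and HIBADH carried no symbol there and were found by their Ensembl identifiers ENSSSCG00000028794, ENSSSCG00000016971, ENSSSCG00000016049 and ENSSSCG00000016695, which a table of gene names ties to these symbols. The 10 genes stand among 121055 assembled loci, of which 22571 carry an Ensembl identifier and 14727 had a mean of at least 0.3 FPKM and were tested, all 10 genes among them.

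Male pigs of PIC breeding were studied, of which 3 had grown normally before birth and 3 had suffered intrauterine growth restriction (IUGR), that is, a birth weight far under that of their litter. Both groups got formula milk and then diets set by body weight, so that lighter pigs need not have had the same diet at the same age, and all shared 1 housing and were fasted before slaughter at 150 days of age. On the day before slaughter all pigs had been infused with dextrose, after an overnight fast, for a glucose tolerance test. The core of the liver was sampled, and polyadenylated RNA of each pig went into 1 library. Each litter of the study gave 1 pig to each group, but which of the sequenced pigs are littermates is not given in the sources used here. The pigs carry no transgene, and the IUGR group is a model in which birth weight arose naturally, so what limited growth in each pig is unknown.

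Branched-chain amino acids are first transaminated to branched-chain keto acids, by BCAT2 in mitochondria or BCAT1 in the cytosol. The mitochondrial branched-chain keto acid dehydrogenase complex then commits them irreversibly to oxidation, and a kinase, BCKDK, turns this complex off. Beyond it the routes part: leucine goes through IVD and the biotin enzyme MCCC1/MCCC2 towards ketone bodies, and valine goes through HIBCH and HIBADH towards propionyl-CoA. In rats the liver is known for low transaminase and high dehydrogenase activity, so that much of the first step takes place in muscle and the keto acids are oxidized in liver.

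Each level is an FPKM, the number of sequenced fragments scaled by the length of the transcript and by the size of the library, which allows levels of different genes to be compared. The processed table holds no read counts, and the depth of a single value is therefore unknown. IUGR pigs were compared with normal pigs by limma on log2(FPKM + 1), and a gene was called at an adjusted p under 0.05 over all 14727 tested loci. A log2 fold change is IUGR minus normal on that scale, which understates the change of low genes. The limma p-values rest on the spread between these libraries, drawn towards that of other loci of similar level. Technical differences between libraries are part of this spread. In a bulk sample fewer cells of a type and less RNA per cell cannot be told apart.

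The libraries differed in ways that the groups do not explain. Normal 1, IUGR 2 and IUGR 3 had a higher total mapped ratio in the alignment summary of the study than Normal 2, Normal 3 and IUGR 1, and known loci held 20.4% to 24.1% of all FPKM in the former libraries and 16.9% to 18.7% in the latter. IUGR 2 and IUGR 3 were much closer to each other (robust SD of the log2 ratio 0.108 over 4823 loci) than any other pair of libraries (0.270 to 0.335). Of the hepatocyte markers, TTR, APOA1, APOB and FGB summed to between 9775 and 17826 FPKM in each library, while ALB was listed at 0 in all 6, where its estimate had failed. The 4 skeletal muscle markers with a locus summed to at most 0.136 FPKM, and the 5 stellate cell and fibroblast markers summed to 65.5 to 104 FPKM in normal pigs and 229.9 to 296 FPKM in IUGR pigs. The lowest of these sums is that of Normal 1, where the estimate of COL3A1 had failed and is listed at 0, and without COL3A1 the other 4 summed to 31.7 to 65.5 FPKM in normal and 74.9 to 96.8 FPKM in IUGR pigs.

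No gene of the 10 differed between IUGR and normal pigs by the test. The highest fold changes were those of HIBADH, at 0.69 (95% confidence interval -0.064 to 1.45), and IVD, at 0.57 (-0.19 to 1.34), and the lowest was that of BCAT2, at -0.13 (-0.81 to 0.55). limma called 0 of 10 genes, and 0 had an unadjusted p under 0.05, with adjusted p from 0.778 to 0.983. Over all tested loci 0.00679% were called higher and 0.0136% lower in IUGR pigs, and an unadjusted p under 0.05 was reached by 6% in the higher and 0.794% in the lower direction. The fold change was above 0 for 8 of the 10 genes and for 79.2% of all tested loci, and its median was 0.19 over the 10 genes and 0.15 over all loci. In 0 of 10 genes did the groups not overlap, whereas over all loci 8.39% had every IUGR library above, and 1.22% every IUGR library below, every normal library.

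**Figure D1:**
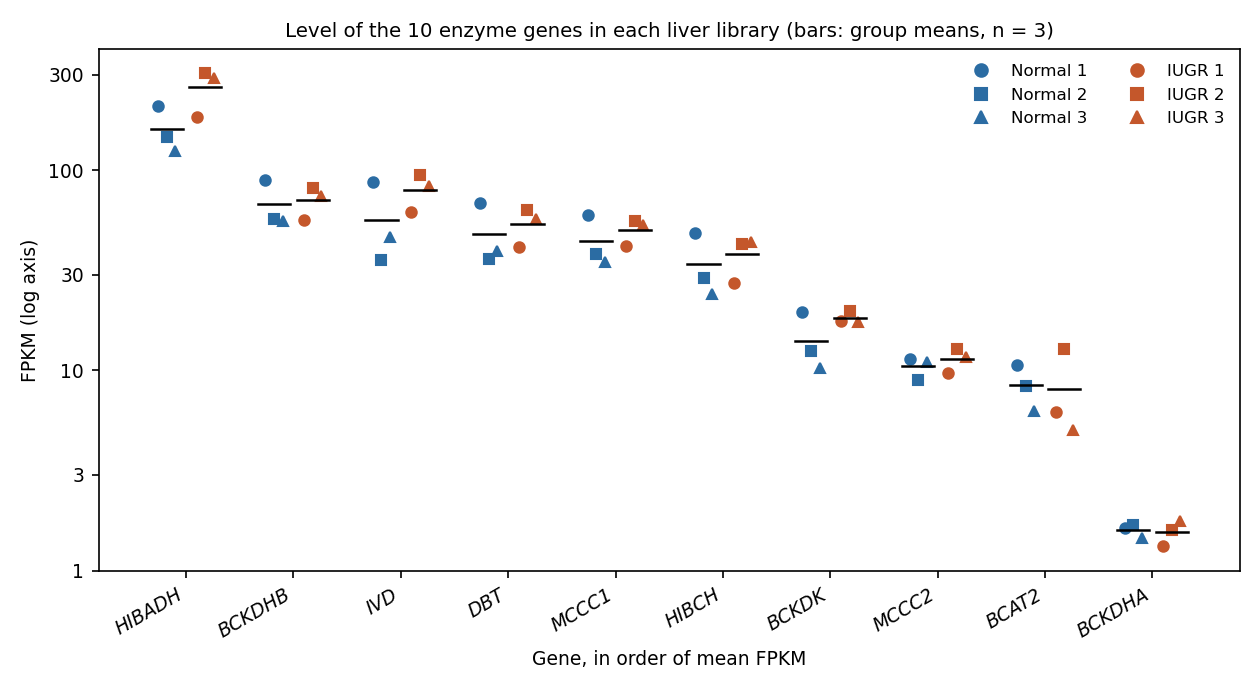
FPKM of the 10 genes (log axis) in each library, with the genes in order of their mean, normal pigs in blue, IUGR pigs in orange, 1 marker shape per replicate number and a bar at each group mean (n = 3). HIBADH lies highest at 125 to 306 FPKM and BCKDHA lowest at 1.32 to 1.77 FPKM, and the groups overlap for every gene.

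The levels of the 10 genes spanned from 1.57 FPKM for BCKDHA to 210.4 FPKM for HIBADH, as means over the 6 libraries. HIBADH stood above 97.7% of the tested loci, and it was above the next gene, BCKDHB, in 6 of 6 libraries, by 2.24 to 3.90 times. BCKDHB, IVD, DBT and MCCC1 followed at means of 69.1, 68.1, 51.0 and 47.2 FPKM. Their order was not fixed: BCKDHB was above IVD in 3 of 6 libraries, IVD above DBT in 5 and DBT above MCCC1 in 4. HIBCH (35.9 FPKM) lay under MCCC1 and above BCKDK (16.2 FPKM) in every library. MCCC2 (10.9 FPKM) was under BCKDK in 5 of 6 libraries and above BCAT2 (8.23 FPKM) in 5 of 6, and BCKDHA was the lowest gene in all of them and stood above 24.0% of the tested loci.

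BCAT2, the mitochondrial transaminase that opens the pathway and can also run in reverse, was at 10.7, 8.33 and 6.30 FPKM in Normal 1, 2 and 3 and at 6.21, 12.8 and 5.04 FPKM in IUGR 1, 2 and 3. The IUGR pigs held both the highest and the lowest value, and the groups overlapped over their whole range. The fold change was -0.13 (SE 0.31, adjusted p = 0.935). IUGR 2, although the library closest to IUGR 3, had 2.54 times its level of BCAT2 and 0.90 to 1.14 times its level of the other 9 genes. The BCAT2 level is uncertain, because the table assigns the same interval (chromosome 6, 49854907 to 49891496 on Sscrofa10.2) to a second BCAT2 row with a mean of 2.08 FPKM and to HSD17B14, a steroid dehydrogenase with a mean of 118 FPKM. The second BCAT2 row did not follow the first: it was at 2.56, 1.47 and 1.39 FPKM in Normal 1 to 3 and 2.40, 2.70 and 1.96 FPKM in IUGR 1 to 3. In that row every IUGR library lay above Normal 2 and Normal 3, and Normal 1 lay between IUGR 1 and IUGR 2. Strand-specific counting is not stated, so reads of overlapping transcripts cannot be told apart.

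BCAT1, the cytosolic transaminase and no member of the 10, was at 4.62 to 7.35 FPKM in normal and 4.93 to 5.84 FPKM in IUGR pigs, with a fold change of -0.029 (adjusted p = 0.979). The FPKM ratio of BCAT2 to BCAT1 ran from 1.02 in IUGR 3 to 2.198 in IUGR 2 and from 1.36 to 1.79 in normal pigs. The normal libraries thus lay within the range of the IUGR libraries.

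BCKDHA and BCKDHB encode the alpha and beta chains of the E1 component, which takes the carboxyl group off the keto acid, and the protein is known to hold both chains in equal number. BCKDHB (chromosome 1, 96603030 to 96716571) was at 89.7, 56.7 and 55.9 FPKM in Normal 1 to 3 and at 56.5, 81.5 and 74.3 FPKM in IUGR 1 to 3. BCKDHA (chromosome 6, 45273867 to 45292462) was at 1.62, 1.69 and 1.45 FPKM in the normal and 1.32, 1.60 and 1.77 FPKM in the IUGR pigs. For BCKDHB, Normal 1 was the highest library and Normal 2, Normal 3 and IUGR 1 lay close together at the lower end, and for BCKDHA both groups covered much the same narrow range. Fold changes were 0.087 (SE 0.31, adjusted p = 0.956) for BCKDHB and -0.017 (SE 0.17, adjusted p = 0.983) for BCKDHA.

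The FPKM ratio of BCKDHA to BCKDHB was only 0.018 to 0.030 over the 6 libraries, although the chains are partners in 1 protein. A second identifier that shares the BCKDHA interval, ENSSSCG00000026723, was listed at 0 in all libraries. How much of the BCKDHA transcript the annotated locus covers on this build was not tested, so the low level describes this locus of the table.

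DBT, the E2 core that takes over the acyl group and passes it to coenzyme A, was at 68.7, 36.2 and 39.5 FPKM in Normal 1 to 3. Its IUGR libraries had 41.4, 63.5 and 56.7 FPKM. Normal 1 was again the highest of all, and every IUGR library lay above the other 2 normal libraries. The fold change was 0.20 (SE 0.32, adjusted p = 0.905). DBT (chromosome 4, 129512166 to 129548997) kept a nearly constant ratio to BCKDHB, at 0.765, 0.638 and 0.706 in the normal libraries, against 0.732, 0.779 and 0.764 in the IUGR libraries. DLD, the E3 component that this complex shares with pyruvate dehydrogenase and others, was at 42.6 to 77.1 FPKM in normal and 46.6 to 61.1 FPKM in IUGR pigs, with a fold change of 0.050 (adjusted p = 0.976).

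BCKDK phosphorylates the BCKDHA protein and so inactivates the complex. Its level (chromosome 3, 17491365 to 17496691) was 19.5, 12.4 and 10.24 FPKM in Normal 1 to 3 and 17.7, 19.7 and 17.4 FPKM in IUGR 1 to 3. The IUGR libraries were tightly grouped (coefficient of variation 7.06%) and lay above Normal 2 and Normal 3, but Normal 1 fell among them. The group means were 14.1 ± 4.85 FPKM (SD, n = 3) in normal and 18.3 ± 1.29 FPKM (SD, n = 3) in IUGR pigs, and the fold change of 0.40 (SE 0.27, adjusted p = 0.862) was not called. The ratio of BCKDK to BCKDHA was 12.0, 7.34 and 7.07 in the normal libraries, against 13.4, 12.4 and 9.83 in the IUGR libraries, a log2 difference of 0.46 with overlapping groups (exact permutation test, two-sided, p = 0.2). PPM1K, the phosphatase that reverses the action of BCKDK, was not analysed here.

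In the leucine branch, IVD (isovaleryl-CoA dehydrogenase, chromosome 1, 145978732 to 145996123) had the widest spread among normal pigs, at 86.9, 35.8 and 46.3 FPKM. The IUGR pigs had 61.6, 94.4 and 83.4 FPKM. All 3 IUGR libraries lay above Normal 2 and Normal 3, and Normal 1 lay between IUGR 2 and IUGR 3. The means were 56.3 ± 27.0 FPKM (SD, n = 3) in normal and 79.8 ± 16.7 FPKM (SD, n = 3) in IUGR pigs, and the fold change was 0.57 (SE 0.35, adjusted p = 0.848). It exceeded that of 95.1% of the tested loci. Without Normal 2 it was 0.30 (adjusted p = 1) and without Normal 1 it was 0.93 (adjusted p = 0.103), so IVD was called in neither.

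MCCC1 and MCCC2 encode the biotin-carrying and the carboxyltransferase subunits of methylcrotonyl-CoA carboxylase, the next step for leucine. MCCC1 (chromosome 13, 130222508 to 130308679) was at 59.7, 38.1 and 34.9 FPKM in normal and 41.9, 55.7 and 52.9 FPKM in IUGR pigs, and MCCC2 (chromosome 16, 51863660 to 51939697) at 11.4, 8.99 and 11.0 FPKM in normal and 9.70, 12.7 and 11.7 FPKM in IUGR pigs. The libraries with the most MCCC1 were Normal 1, IUGR 2 and IUGR 3, and these were also the highest for MCCC2, by a smaller margin. Fold changes were 0.21 (SE 0.30, adjusted p = 0.900) for MCCC1 and 0.10 (SE 0.23, adjusted p = 0.932) for MCCC2. MCCC1 exceeded MCCC2 in FPKM by 3.16 to 5.22 times. A second identifier without a symbol, ENSSSCG00000021154, shares the MCCC2 interval at a mean of 10.21 FPKM, and since how fragments were divided between both rows was not tested, the MCCC2 level is uncertain.

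HIBCH and HIBADH act one after the other in valine breakdown: HIBCH frees 3-hydroxyisobutyrate from coenzyme A, and HIBADH oxidizes it to methylmalonate semialdehyde. HIBCH (chromosome 15, 106048443 to 106155582) was at 48.5, 29.0 and 24.1 FPKM in normal and 27.2, 42.7 and 44.0 FPKM in IUGR pigs. HIBADH (chromosome 18, 49630501 to 49645365) was at 210.1, 147 and 125 FPKM in normal and 185, 306 and 289.8 FPKM in IUGR pigs. For HIBCH, Normal 1 was the highest library and the groups were mixed. For HIBADH, IUGR 2 and IUGR 3 were above every normal library, and only IUGR 1 lay within the normal range, under Normal 1.

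The HIBADH means were 161 ± 44.1 FPKM (SD, n = 3) in normal and 260.1 ± 65.8 FPKM (SD, n = 3) in IUGR pigs, and its fold change of 0.69 (SE 0.35, unadjusted p = 0.0694 and adjusted p = 0.778 by limma) was not called. It exceeded that of 97.2% of the tested loci and lay between 0.38 and 0.92 under all 15 alternatives. Both filter settings, no trend and the replicate block leave it at 0.69 by their form. The fold change of HIBCH was 0.19 (SE 0.32, adjusted p = 0.906), close to the median of all loci. The summed level of the stellate cell and fibroblast markers did not overlap between the groups either with or without COL3A1, whose failed 0 in Normal 1 widens the gap. Of all cell type markers tested, COL1A1, COL1A2, COL3A1, DCN, LUM, PECAM1, VWF, SPP1 and CD79B had an unadjusted p under 0.05, all with a fold change above 0. limma called none of them (adjusted p from 0.327 for COL1A2 to 0.703 for LUM). Over all tested loci an unadjusted p under 0.05 was reached by 6% in the higher and 0.794% in the lower direction. The endothelial marker PECAM1 was at 17.4 to 28.2 FPKM in normal and 33.8 to 42.5 FPKM in IUGR pigs, with no overlap. Over all tested loci 8.39% had every IUGR library above every normal library. The groups overlapped for VWF, KDR and STAB2. They also overlapped for the endothelial sum, at 51.1 to 113 FPKM in normal and 101 to 126 FPKM in IUGR pigs. Among the cholangiocyte markers, fold changes were 1.07 for SPP1, 0.44 for KRT19, 0.16 for SOX9 and -0.12 for EPCAM. The tested macrophage markers had 0.23 (CD14), 0.17 (C1QA), 0.12 (C1QB), -0.054 (CD68) and -0.47 (MARCO). The tested lymphocyte markers had 0.39 (CD79B), 0.18 (MS4A1), 0.11 (CD3D), 0.085 (CD2) and 0.036 (CD3E). The part of these cell types in the HIBADH difference was not tested.

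**Figure D2:**
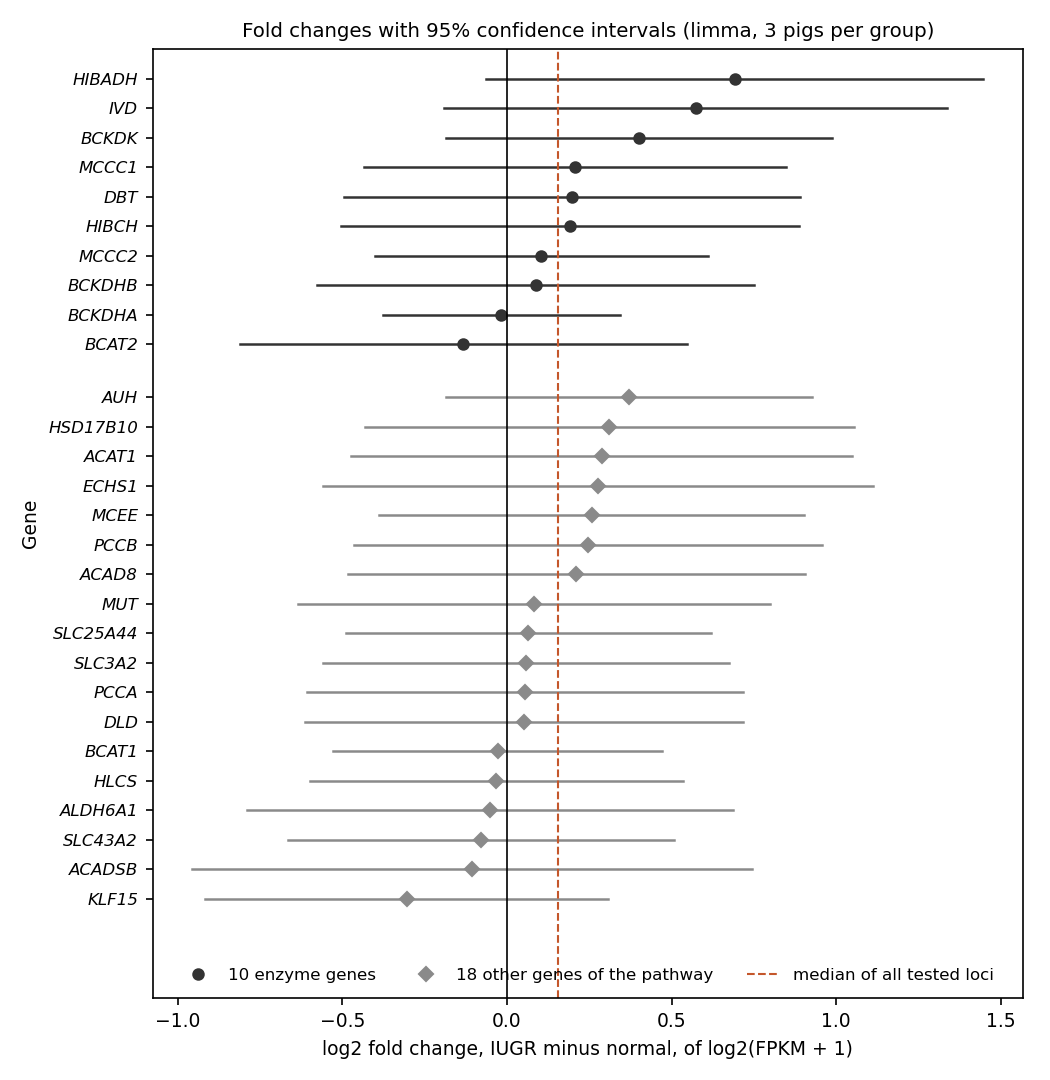
The log2 fold change of IUGR against normal pigs on the log2(FPKM + 1) scale (horizontal axis) is drawn with its 95% confidence interval from limma for the 10 genes (black circles) and 18 other genes of the pathway (grey diamonds), beside the median of all tested loci at 0.15 (dashed line). Every interval includes 0, and HIBADH (0.69) and IVD (0.57) have the highest values.

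A ratio of both genes within 1 library does not move with the scale of that library. The ratio of HIBCH to HIBADH was 0.231, 0.198 and 0.193 in Normal 1 to 3 and 0.147, 0.140 and 0.152 in IUGR 1 to 3. Every IUGR pig thus had less HIBCH per HIBADH than every normal pig. The log2 ratio was -2.28 ± 0.14 (SD, n = 3) in normal and -2.78 ± 0.061 (SD, n = 3) in IUGR pigs, a difference of -0.50 or 0.708-fold. The exact permutation test, two-sided, gave p = 0.1, which is the smallest p that 3 pigs against 3 allow, and 0.6 after Benjamini-Hochberg adjustment over the 6 ratios computed. The difference was -0.67 among the libraries of higher and -0.41 among those of lower total mapped ratio. It ran from -0.42 to -0.55 with each library left out in turn. HIBADH, the denominator, had a fold change above that of 97.2% of the tested loci, against 57.9% for HIBCH. Whether ratios of genes outside the HIBCH interval to HIBADH also separate the groups was not tested. The separation can therefore not be read as particular to HIBCH.

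The HIBCH interval also holds a second identifier without a symbol, ENSSSCG00000029041, at a mean of 25.7 FPKM. Ratios for the second rows of the HIBCH and the MCCC2 interval were added after seeing the data. The ratio of the second HIBCH row to HIBADH was 0.141, 0.140 and 0.126 in the normal libraries, against 0.111, 0.111 and 0.118 in the IUGR libraries. These groups did not overlap, and the log2 difference was -0.26 (exact permutation test, two-sided, p = 0.1). Both ratios share HIBADH and the HIBCH interval, so the second is not independent of the first. For the second MCCC2 row, ENSSSCG00000021154, the ratio to MCCC1 was 0.166 to 0.356 in normal and 0.179 to 0.226 in IUGR pigs, with overlapping groups and a log2 difference of -0.12 (exact permutation test, two-sided, p = 0.9). How the fragments of the HIBCH interval were divided between the HIBCH row and the second row was not tested.

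In the other 5 ratios (BCKDHA to BCKDHB, DBT to BCKDHB, BCKDK to BCKDHA, MCCC1 to MCCC2 and BCAT2 to BCAT1) the groups overlapped. Their log2 differences were between -0.13 and 0.46, with exact permutation p from 0.2 to 0.8 (two-sided), or 0.6 to 0.8 after Benjamini-Hochberg adjustment over the 6 ratios. MCCC1 to MCCC2 was nearly the same in all IUGR pigs, at 4.32, 4.38 and 4.54, and spread from 3.16 to 5.22 in normal pigs.

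**Figure D3:**
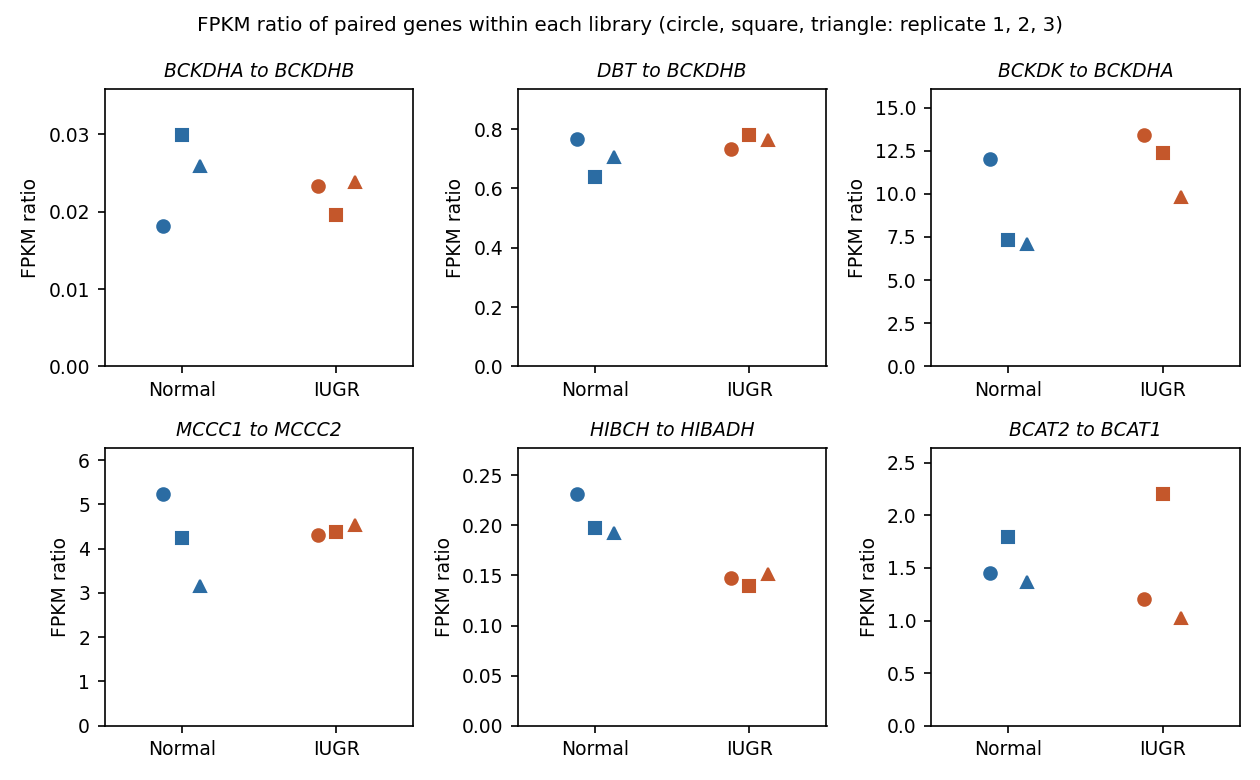
FPKM ratio of 6 pairs of genes within each library (vertical axes start at 0), with normal pigs in blue, IUGR pigs in orange and 1 marker shape per replicate number. HIBCH to HIBADH is the pair whose groups do not overlap, at 0.193 to 0.231 in normal and 0.140 to 0.152 in IUGR pigs.

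Most of the 10 genes varied over the libraries in a way that crosses the groups. Normal 1 was the highest normal library for 9 of the 10 genes (81.5% of all tested loci), IUGR 2 the highest IUGR library for 8 (69.4%), and IUGR 1 the lowest IUGR library for 8 (61.3%). Normal 1, IUGR 2 and IUGR 3 are the libraries of higher total mapped ratio, and for 7 of 10 genes they lay above all 3 others. The exceptions were BCAT2, BCKDHA and BCKDK. Over all tested loci 44.3% were split in this way.

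Between these sets of libraries limma called 3 of 10 genes higher at the higher mapped ratio: HIBCH, with a log2 difference of 0.73 (SE 0.14, adjusted p = 0.0418), DBT, with 0.68 (SE 0.15, adjusted p = 0.0421), and IVD, with 0.90 (SE 0.20, adjusted p = 0.0424). Of all tested loci 7.5% were called higher. HIBADH (0.81, adjusted p = 0.0519), MCCC1 (0.54, adjusted p = 0.0525) and BCKDHB (0.53, adjusted p = 0.0538) missed the threshold narrowly, and BCKDK (0.49, adjusted p = 0.106), BCAT2 (0.33), MCCC2 (0.25) and BCKDHA (0.10) by more. The median difference was 0.53 over the 10 genes and 0.32 over all loci. The calls rest on few libraries: 0 genes were called without Normal 1, Normal 2, Normal 3, IUGR 2 or IUGR 3, and 7 without IUGR 1. With each library scaled to the same median over the tested loci, 0 were called and the differences of HIBCH, DBT and IVD were 0.36, 0.30 and 0.52. The mapped ratio and differences between the pigs themselves cannot be told apart in this split.

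**Figure D4:**
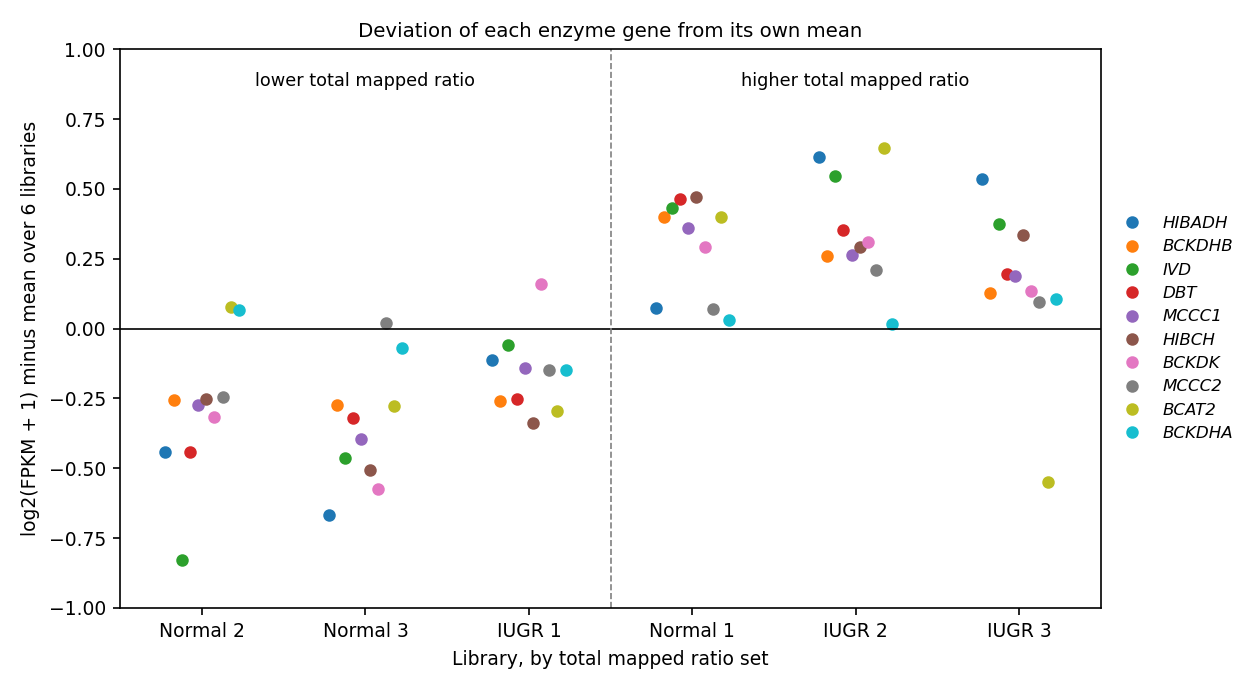
Deviation of log2(FPKM + 1) from the mean over the 6 libraries (vertical axis) for each of the 10 genes in each library, with the libraries of lower total mapped ratio to the left of the dashed line and those of higher ratio to the right. Most genes lie under 0 on the left and above 0 on the right, and BCAT2 in IUGR 3, at -0.55, is the lowest point on the right.

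Within the libraries of higher mapped ratio, both IUGR pigs were above Normal 1 in 2 of the 10 genes, MCCC2 and HIBADH, as they were in 26.2% of all tested loci. Within those of lower ratio, IUGR 1 was above both normal pigs in 5 genes (BCKDK, DBT, IVD, MCCC1 and HIBADH) and in 62% of all loci. The 1 gene in both counts was HIBADH, and both held for 16% of all loci, so that none of these 3 counts was above its share over all loci. The log2 difference of HIBADH between IUGR and normal pigs was 0.50 in the higher and 0.44 in the lower set. IVD, in contrast, differed by 0.029 in the higher and 0.59 in the lower set, and DBT by -0.19 and 0.13. With the set as a second factor, HIBADH had a fold change of 0.47 (95% confidence interval 0.080 to 0.87), an unadjusted p of 0.0237 and an adjusted p of 0.549 by limma, and was not called. The median over the 10 genes was then -0.0035.

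The FPKM of the 10 genes summed to 355 to 607 FPKM in normal and 448 to 691 FPKM in IUGR pigs. In ppm of the FPKM summed over known loci, the 10 genes held 898, 954 and 893 for Normal 1 to 3. The same share was 897, 1066 and 1108 ppm for IUGR 1 to 3, so that IUGR 2 and IUGR 3 stood above the rest and IUGR 1 among the normal libraries. HIBADH alone makes up a large part of this sum.

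Of 22 other genes of branched-chain amino acid metabolism, 19 had a locus and 18 were tested. BTD, which recycles biotin, was at or under 0.07 FPKM and was not tested, and PPM1K and the amino acid transporters SLC7A5 and SLC43A1 were not analysed here. limma called 0 of these 18 genes, against 0.00679% of all tested loci called higher and 0.0136% called lower. An unadjusted p under 0.05 was reached by 0 of the 18, against 6% of all loci in the higher and 0.794% in the lower direction. The fold changes ran from -0.31 to 0.37, with 12 above 0 and a median of 0.061. Over all tested loci 79.2% were above 0 and the median was 0.15. The lowest p values belonged to AUH, KLF15, HSD17B10, MCEE and ACAT1. AUH, the hydratase that follows methylcrotonyl-CoA carboxylase, was at 22.9 to 28.9 FPKM in normal and 30.8 to 38.9 FPKM in IUGR pigs. Its groups did not overlap, as 8.39% of all tested loci had every IUGR library above every normal library. Its fold change of 0.37 (SE 0.26, adjusted p = 0.862) was not called.

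KLF15, a transcription factor known in mice to drive genes of this pathway, was at 28.4 to 49.9 FPKM in normal and 28.1 to 33.8 FPKM in IUGR pigs, and its fold change of -0.31 (SE 0.28, adjusted p = 0.886) lay above that of only 2.71% of the tested loci. HSD17B10, an isoleucine enzyme whose locus joins 3 genes in the table, had 0.31 (SE 0.34, adjusted p = 0.897), and MCEE, the epimerase of methylmalonyl-CoA, had 0.26 (SE 0.30, adjusted p = 0.897). ACAT1, the mitochondrial thiolase that ends the isoleucine branch, was at 129 to 238 FPKM in normal and 153 to 229 FPKM in IUGR pigs, with a fold change of 0.29 (SE 0.35, adjusted p = 0.897). The remaining genes included ACADSB, the dehydrogenase of the isoleucine branch, which at a mean of 461 FPKM had a higher level than any of the 10 genes and a fold change of -0.11 (adjusted p = 0.958).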

How the data were processed

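The authors sequenced polyadenylated liver RNA, with 1 library for each of 3 normal and 3 IUGR pigs. Per the submitters' processing notes, reads were aligned with TopHat2 2.0.14 on a Bowtie2 2.0.6 index of Sscrofa10.2, assembled with Cufflinks 2.2.1 and quantified with Cuffdiff 2.1.1. The processed table that the authors deposited holds FPKM and no counts, so the edgeR 3.2 test of the study, which takes counts, was not used here. The text of the study names another build, and coordinates are given as the table has them. An interval is that of the assembled locus and can be shared by several rows.

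FPKM were used with no further scaling. limma 3.58.1 in R 4.3.3 (lmFit, eBayes with a trend, two-sided) was run on log2(FPKM + 1) over the 14727 loci with an Ensembl identifier and a mean of at least 0.3 FPKM, with Benjamini-Hochberg adjustment over all of them. It was tested on simulated data with independent noise at each locus and library. These held no shift shared by a whole library and no pair of libraries as close as IUGR 2 and IUGR 3. Ratios within a library were compared by exact permutation over 20 arrangements. The table has 59 loci whose estimate is not marked OK in some library, ALB among them, and none of the 10 genes. All 10 genes and BCAT1, DLD and the 5 other pathway genes with the lowest p are named with values, and ACADSB was named after its values were seen. Beyond the 22 other pathway genes counted here, 1 further gene is not reported here. The members and lists were chosen with earlier results of these data known. Same-numbered libraries did not deviate together, which cannot decide whether they come from littermates. The labels' numbers were not used as pairs in the main test. Python 3.11.15, pandas 2.3.3, numpy 2.4.6, scipy 1.17.1 and matplotlib 3.10.9 were used.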

Additional observations from a re-analysis of the deposited data

How the results depend on the processing

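The alternatives were another pseudocount (0.1), no filter or a mean of at least 1 FPKM, the same median or quantile normalization, no trend, the mapped ratio set as a second factor, a replicate block and each library left out, and, added after seeing the data, IUGR 2 and IUGR 3 averaged and only the 6 genes with a symbol. None of them called any of the 10 genes or of the 18 other pathway genes between IUGR and normal pigs, and the lowest adjusted p of a member was 0.103 (IVD without Normal 1). The median over the members was 0.012 with the same median, -0.012 with quantile normalization and 0.069 to 0.46 with a library left out. Those scalings took the median of all loci from 0.15 to 0.016 and -0.0054, and the share of loci above 0 from 79.2% to 53.8% and 48.7%.

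The sign turned for BCKDHB (-0.097) and MCCC2 (-0.069) with the same median. It turned for BCKDHB (-0.15), DBT (-0.011), HIBCH (-0.013) and MCCC2 (-0.075) with quantile normalization. With the mapped ratio set as a second factor it turned for BCKDHB (-0.099), DBT (-0.031) and HIBCH (-0.060). Leaving out a library gave -0.49 to 0.11 for BCAT2, -0.075 to 0.053 for BCKDHA, -0.028 to 0.31 for BCKDHB and -0.015 to 0.47 for HIBCH, and log2 ratio differences of -0.33 to 0.035 for BCKDHA to BCKDHB, -0.093 to 0.27 for MCCC1 to MCCC2 and -0.46 to 0.095 for BCAT2 to BCAT1. The cause was not tested. BCKDK, IVD, MCCC1 and HIBADH stayed above 0 in all 15 alternatives. Of these, both filter settings, no trend and the replicate block cannot move a fold change, so their signs were fixed in advance.

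Between the mapped ratio sets, 3 members were called with a pseudocount of 0.1, 0 with the same median, 0 with the IUGR group as a second factor and 0 to 7 with a library left out. Of all loci, 1104 were called higher, 60 with that second factor, 2 with the same median and 3 to 3697 with a library left out.

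Same-numbered libraries had correlations of -0.22, -0.072 and -0.17 in their deviations from the group means. These deviations also carry the differences between whole libraries, so they cannot show whether same-numbered pigs are littermates. With the replicate block, 0 of 10 members were called (lowest adjusted p 0.998 by limma). Among all loci 166 were called higher and 79 lower, against 1 and 2 without the block. The block cannot move the difference in HIBCH to HIBADH, which stayed at -0.50. Apart from the block, counts of called loci ran from 1 higher and 0 lower with the same median to 128 higher and 30 lower without IUGR 1. The ratio of BCKDK to PPM1K was not run. Without read counts, the depth of each value is unknown.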
